A study of Mus musculus with 22 samples.

Results

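The response of the wild-type mouse heart to T3 was examined in 12 of the 22 arrays of a series on thyroid hormone receptor α1, chosen by their titles as the 6 wild-type hearts on T3 and the 6 wild-type hearts on water. All animals were male C57/BL6NCr mice aged 3 to 6 months that, by the labels, were housed singly at 30 °C, and the RNA came from the whole heart. The study's methods instead describe group housing, and the difference could not be settled here. The T3 group drank water with 0.5 mg/L T3 for 12 days and the water group drank water without the hormone, and 0.01% bovine serum albumin was present in the water of both groups. The other 10 arrays came from TRα1+m mice, heterozygous for a mutation of the receptor gene, with 5 on T3 and 5 on water, and shared in the estimate of the spread. As many mice as arrays are listed by the submitters, and 1 array was therefore read as 1 animal, whose spread within a group is what the p-values measure.

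T3 is the active form of thyroid hormone. It enters the nucleus, where it binds the receptors TRα1 and TRβ, which sit on DNA as partners of retinoid X receptors and recruit corepressors without hormone and coactivators with it. In the heart TRα1 is the main receptor, and excess hormone is known to speed the heartbeat, to shift myosin from the slow to the fast heavy chain and to enlarge the ventricles.

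Levels are given as log2 intensities, a scale on which each unit stands for a factor of 2 in signal, and differences are T3 minus water with the standard error of the linear model. A probe set, the group of probes that reads a transcript, was called when its p-value, adjusted after Benjamini and Hochberg over all 21092 gene probe sets with a mean level above 4, lay below 0.05 in limma. Probe sets that match no mouse gene had a median level of 6.14 on T3 arrays and of 6.23 on water arrays. A gene with a group mean under that level was not shown to exceed background in that group, and its difference is then a lower bound.

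On the leading principal component of the wild-type arrays, which held 27.5% of the variance, T3 hearts lay between -44.3 and -12.0 and water hearts between 4.0 and 36.9, with no overlap. The second component held 22.3% and spread the arrays within both groups. Water arrays 3 and 6 and T3 array 6 lay lowest on it, at -46.7, -32.7 and -29.4, and had the narrowest range of gene levels in their groups, with interquartile ranges of 4.35, 4.33 and 4.27. Lists of genes below are therefore also given without these 3 arrays where a count moved by more than 1.5 times and by at least 2 members. Markers of cardiomyocytes stood at the top of the scale in every heart. The tested markers of B cells, neutrophils, Schwann cells and neurons, thymus and lung lay under the negative controls in both groups. Fat and blood markers were uneven between hearts. The log2 of the summed intensity of adipocyte markers ran from 7.27 to 8.72 on T3 and from 6.73 to 12.44 on water (median 7.8). That of erythroid markers ran from 10.04 to 12.57 on T3 and from 10.18 to 11.9 on water.

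**Figure D1:**
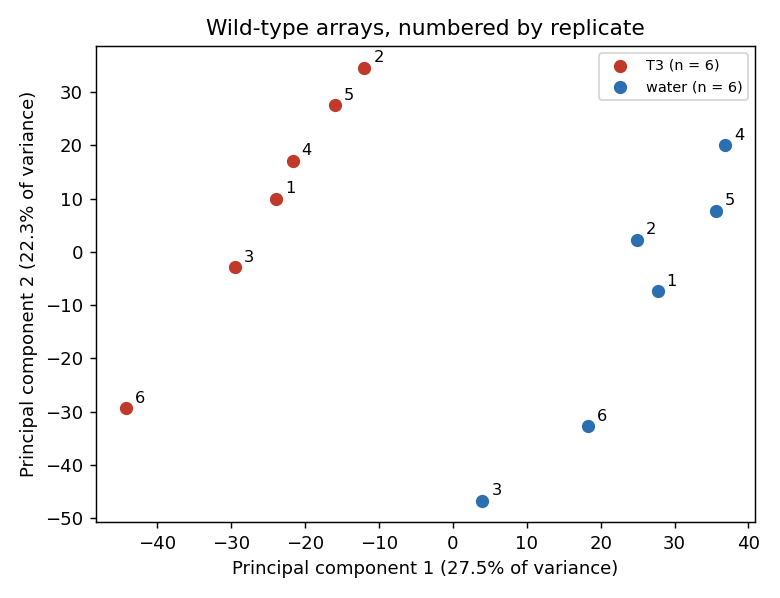
Scores of the 12 wild-type arrays on the first 2 principal components of the tested probe sets, with the percent of variance on each axis and replicate numbers beside the points (red, T3; blue, water). T3 hearts lie between -44.3 and -12.0 and water hearts between 4.0 and 36.9 on component 1, and water arrays 3 and 6 and T3 array 6 lie lowest on component 2.

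Of the 21092 probe sets, 1320 were called higher (6.26%) and 1368 lower (6.49%) on T3, 12.7% in all. The median difference was 0.67 among called rises and -0.59 among called falls, so that a typical change was well under 1 unit. A difference of at least 1 was seen in 259 rises and 182 falls, and of at least 2 in 17 rises and 18 falls. In 1555 probe sets, 7.37% of those tested, the 6 T3 arrays did not overlap the 6 water arrays. Calls were more frequent among well expressed genes. At mean levels from 4 to 6, 1.12% were called higher and 0.742% lower, against 14% higher and 19.7% lower at levels from 12 to 14. Counts in the gene lists below are to be read beside the 6.26% and 6.49% over all probe sets, which were not matched to a list by level.

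**Figure D2:**
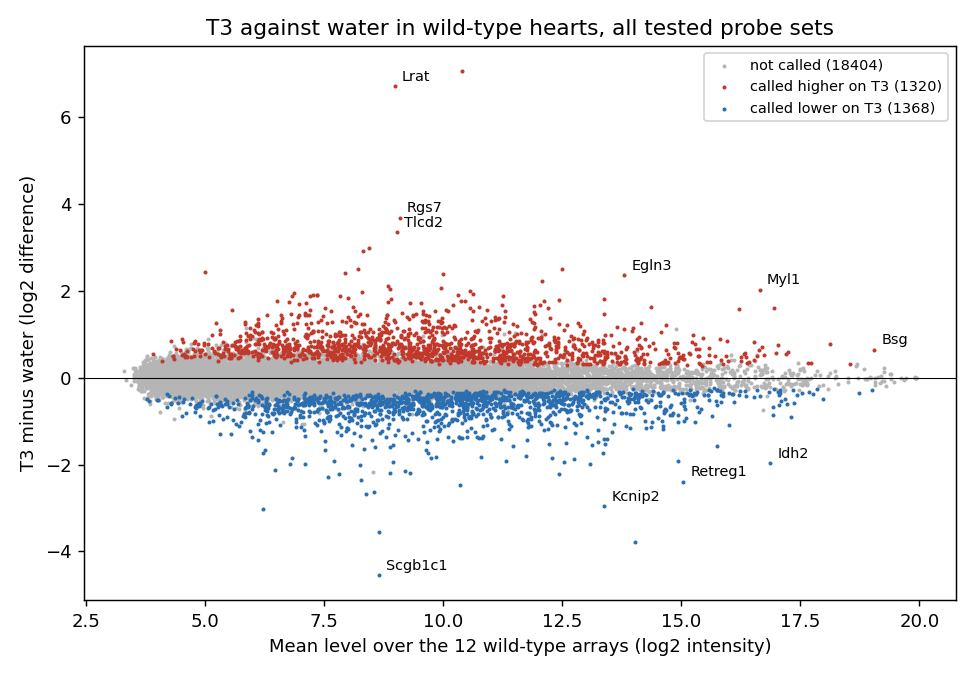
T3 minus water (log2 difference) against the mean level over the 12 wild-type arrays (log2 intensity) for all 21092 tested probe sets, with 1320 called higher in red, 1368 called lower in blue and the rest in grey. Differences above 3 were few in either direction, and calls thin out toward the low end of the scale.

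The largest difference belonged to 2210407C18Rik, a predicted gene picked out here after its value was seen. Its level ran from 13.41 to 14.46 on T3 (median 13.94), against 6.45 to 7.49 on water (median 6.93), a difference of 7.06 ± 0.19 (adjusted p = 6.4e-18). Lrat, the enzyme that esterifies retinol for storage, followed with levels from 10.88 to 12.87 on T3 (median 12.52), against 5.45 to 5.80 on water (median 5.62). The lowest T3 value of Lrat was that of array 6, and its water level was under the negative controls, so that the difference of 6.71 ± 0.26 is a lower bound. Of 23 tested genes of retinoid handling 2 were called higher (8.7%) and 1 lower (4.35%), shares close to those over all probe sets, with a list median of 0.04.

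Next came Rgs7, which speeds the shut-off of G proteins, with levels of 10.60 to 11.11 on T3 (median 10.98), against 6.34 to 8.26 on water (median 7.26). Tlcd2, a membrane protein gene, lay between 10.37 and 10.93 on T3 (median 10.76), against 6.95 and 7.73 on water (median 7.41). In neither gene did the groups come near each other, and the differences were 3.69 ± 0.24 and 3.36 ± 0.16. Egln3, a prolyl hydroxylase that marks hypoxia-inducible factors for destruction, lay between 14.84 and 15.13 on T3 (median 14.97), against 12.34 and 12.98 on water (median 12.62), and so was well expressed without added hormone. Its difference was 2.36 ± 0.16 (adjusted p = 1.8e-10).

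Several further rises of about 2 log2 units affected genes with diverse roles. Itga9, an integrin subunit, rose by 2.24 ± 0.20, Acsl6, which activates long-chain fatty acids, by 2.12 ± 0.22, and Ptgfr, the receptor of prostaglandin F2α, by 2.05 ± 0.25. Klhl33 rose by 2.08 ± 0.21, the serine protease gene Prss55 by 1.92 ± 0.26, and Col4a3, a chain of basement membrane collagen, by 1.97 ± 0.20. The adjusted p of these 6 genes ran up to 9.5e-06 for Prss55, and in none of them did the groups overlap. The water mean of Prss55, 6.30, was close to the negative controls, which may limit the size of its difference. Adamts8, a secreted metalloprotease, had a mean of 6.22 on T3, close to the negative controls, and of 3.79 on water, well under them, so that its difference of 2.43 ± 0.21 is read only as a lower bound.

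Among the falls, Scgb1c1, a secretoglobin, lay between 5.99 and 6.76 on T3 (median 6.43), against 10.50 to 11.38 on water (median 10.92). Retreg1, a receptor for the selective breakdown of endoplasmic reticulum, had levels of 13.58 to 14.14 on T3 (median 13.78), against 15.92 to 16.41 on water (median 16.27). Both genes were thus separated by more than the whole spread of either group, with differences of -4.54 ± 0.17 and -2.39 ± 0.12. The T3 mean of Scgb1c1, 6.37, was close to the negative controls, so that background may limit the size of its difference. Cep128, a centrosomal protein gene, fell by 3.55 ± 0.21, and Lgals4, a galectin, by 2.68 ± 0.30. Penk, which encodes the enkephalin precursor, fell by 2.15 ± 0.24, and Cpxm2, a carboxypeptidase-like gene, by 2.29 ± 0.28. Parm1 fell by 1.95 ± 0.12, Abhd18 by 2.19 ± 0.18 and Lrrc4b, a synaptic adhesion molecule, by 2.19 ± 0.30. The T3 means of Afmid, a kynurenine pathway enzyme, Scd4, a fatty acid desaturase, and Ubxn10 were under the negative controls, and their differences of -2.13 ± 0.15, -2.0 ± 0.27 and -1.99 ± 0.24 are bounds.

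**Figure D3:**
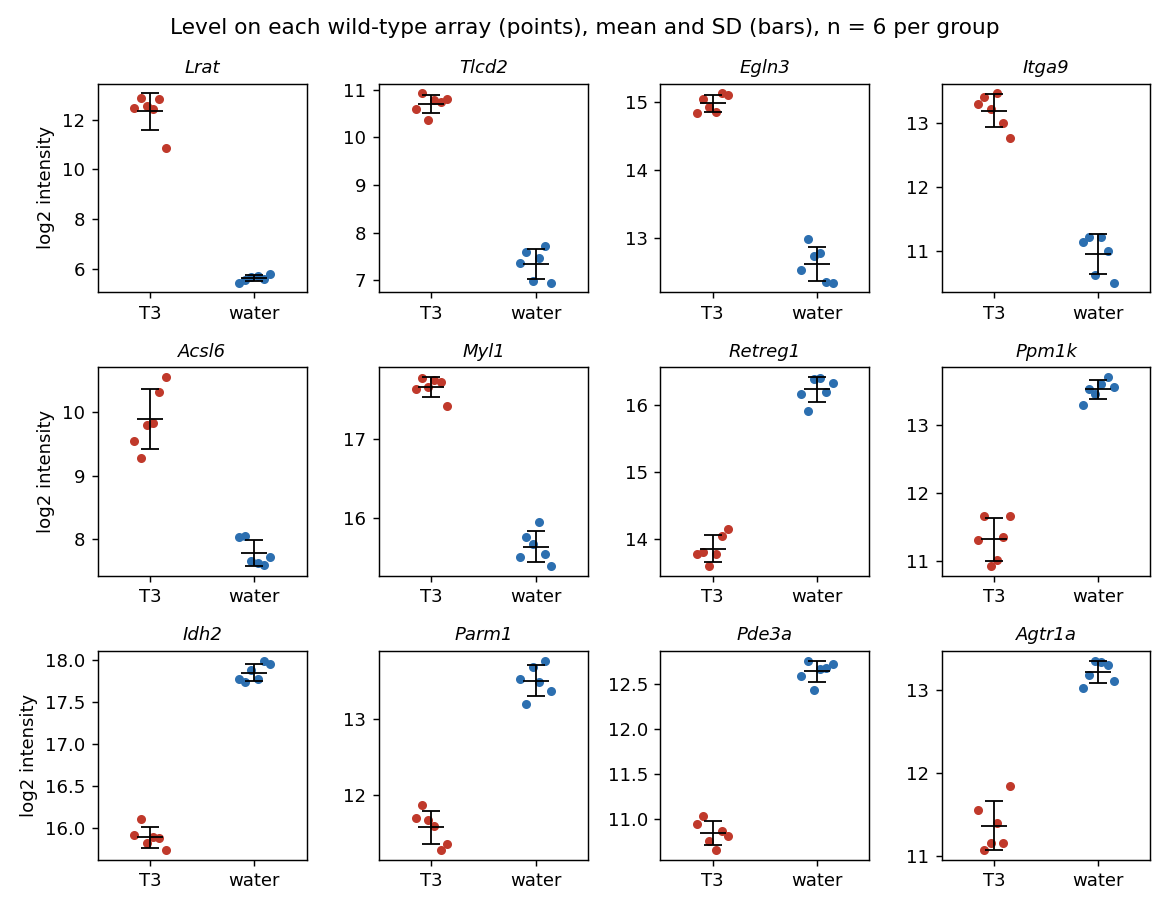
Level (log2 intensity) of 12 genes with large differences on each of the 6 T3 arrays (red, left) and 6 water arrays (blue, right), with mean and SD. In all 12 panels the groups are separate, and T3 array 6 lies apart from the other T3 arrays for Lrat, at 10.88.

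Called differences were smaller among the most abundant genes, with a median size of 0.49 at mean levels from 14 to 20, against 0.71 at levels from 6 to 8. Bsg, the basigin gene whose product carries lactate transporters to the membrane, lay at 19.30 to 19.50 on T3 (median 19.34), against 18.65 to 18.93 on water (median 18.70), a rise of 0.64 ± 0.08 (adjusted p = 6.9e-06). B2m, the light chain of MHC class I, lay at 18.45 to 18.62 on T3 (median 18.52), against 17.43 to 18.35 on water (median 17.62), a rise of 0.79 ± 0.14. The ranges of these genes did not overlap. Lmo7, a protein of cell junctions, fell by 0.48 ± 0.09, and Hadhb, the β subunit of the mitochondrial trifunctional protein of fatty acid oxidation, by 0.38 ± 0.08. Smaller calls among abundant genes were those of Serinc3 (0.31 ± 0.09) and of Slc25a3, the mitochondrial phosphate carrier (-0.33 ± 0.09), and both were lost without the 3 arrays named above.

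Genes induced by interferon, which restrict viruses, rose almost as a group, with 34 of 43 tested members called higher and 0 lower, against 6.26% called higher over all probe sets. Their median difference was 0.99. Ifit3 lay between 11.25 and 11.85 on T3 (median 11.58), against 9.07 and 10.39 on water (median 9.56), and Slfn5 between 12.42 and 12.56 on T3 (median 12.49), against 10.90 and 11.40 on water (median 11.17). For both genes every T3 heart exceeded every water heart, with differences of 1.92 ± 0.17 and 1.35 ± 0.11. Phf11d rose by 1.43 ± 0.15, Slfn8 by 1.40 ± 0.15, Rsad2, the antiviral enzyme viperin, by 1.45 ± 0.19 and Gbp3, a guanylate-binding protein, by 1.33 ± 0.20. The water mean of Slfn8, 6.24, was close to the negative controls, which may limit the size of its difference. Of 41 genes that sense foreign nucleic acids or signal for interferon, 19 were called higher and 0 lower (median 0.39). Among these, the endosomal RNA sensor Tlr7 rose by 1.42 ± 0.17, the cytosolic RNA sensor Ifih1 by 1.30 ± 0.15 and Irf9, a subunit of the interferon-activated transcription factor, by 1.01 ± 0.14. The more variable Irf7, the factor that amplifies the interferon response, lay between 8.49 and 10.04 on T3 (median 9.22), against 5.33 and 7.69 on water (median 6.83).

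The promoters of these genes were searched for letters that factors of this pathway and of others are known to bind, in RefSeq windows of GRCm38.p6 that run from 250 bases before to 50 bases after the transcription start. Windows were found for 14890 of 18510 named genes, and 2487 of these genes had several, of which the first listed was read. A pair of GAAA with 2 bases of any kind between them, a core of the interferon-stimulated element, was present on either strand in 16 of 32 windows of interferon-induced genes (50%), in 13.9% of genes called higher by at least 1 log2 unit, in 6.3% of all called higher, in 2.09% of those called lower and in 3.36% of all tested genes. These sets overlap, as interferon-induced genes called higher are also counted in the sets of genes called higher, so the shares are not separate results. The stretches that hold the motif upstream of 5 interferon-induced genes are shown because these genes rose together, with the motif or its reverse complement in capitals. They lie at chr19:34583365-34583424 (plus strand) for Ifit3, chr11:82951933-82951970 (plus strand) for Slfn5, chr11:83020835-83020872 (minus strand) for Slfn8, chr3:142559985-142560028 (plus strand) for Gbp3 and chr12:26456549-26456586 (minus strand) for Rsad2.
Ifit3: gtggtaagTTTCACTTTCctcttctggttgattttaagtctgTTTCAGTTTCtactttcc
Slfn5: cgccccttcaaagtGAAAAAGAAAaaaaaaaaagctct
Slfn8: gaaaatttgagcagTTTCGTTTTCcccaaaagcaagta
Gbp3: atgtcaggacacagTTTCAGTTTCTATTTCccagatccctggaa
Rsad2: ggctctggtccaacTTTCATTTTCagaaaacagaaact

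The half-site of nuclear receptors, AGGTCA, was about as frequent in genes called higher (13.3%) and lower (12.9%) as in all tested genes (13.8%). Its direct repeat, AGGTCA followed after 4 bases of any kind by AGGNCA and so itself a holder of the half-site, was present in 0 of 953 windows of genes called higher, in 2 of 1004 called lower and in 8 of 14890 in all. Distant elements, through which these receptors often act, lie outside such windows. Genes that fell could also hold 2 half-sites, among them Ubxn10 and Vegfb, as did Ptgfr, which rose. The pacemaker channel gene Hcn2, at chr10:79716384-79716477 (plus strand), and Acsl6, at chr11:54303629-54303668 (plus strand), each held 2 half-sites. They are shown in capitals as their reverse complement because these 2 genes were among the 20 largest rises.
Hcn2: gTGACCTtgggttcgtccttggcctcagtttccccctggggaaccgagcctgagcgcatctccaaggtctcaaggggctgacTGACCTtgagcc
Acsl6: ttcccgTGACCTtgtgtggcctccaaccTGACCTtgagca

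The E-box CACGTG, which clock factors bind, was found in 11.6% of genes called lower, in 7.66% of those called higher and in 8.41% of all, and TTATGTAA, a site of the clock output factors, in 0.199%, 0.63% and 0.819% of the same sets. Ciart, a repressor of the clock, holds 3 E-boxes at chr3:95882261-95882350 (minus strand), printed in capitals because it was the clock gene with the largest fall.
Ciart: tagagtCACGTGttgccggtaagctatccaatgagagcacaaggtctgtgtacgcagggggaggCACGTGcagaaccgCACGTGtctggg
Its level varied widely within groups, from 5.28 to 7.91 on T3 (median 6.79), against 6.60 to 10.72 on water (median 9.23). The groups of Ciart overlapped, and its difference of -2.23 ± 0.52 passed the threshold with an adjusted p of 0.0045. The same held for Cry2, a core repressor, at -1.0 ± 0.18. Of 17 clock genes 6 were called lower and 1 higher (median -0.68), and in 0 of the 17 were T3 and water hearts fully separated, against 7.37% of all probe sets. No source used here states the time of day at which hearts were taken, and its part in these values was not tested.

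Phosphodiesterase genes changed in both directions. Among 18 of these enzymes, which break down cyclic nucleotides, 3 were called higher (16.7%) and 4 lower (22.2%). Pde1c, a calcium-activated form, lay between 8.53 and 9.52 on T3 (median 9.18), against 11.28 and 11.92 on water (median 11.58), and Pde3a, the cardiac form that cGMP inhibits, between 10.65 and 11.03 on T3 (median 10.83), against 12.43 and 12.76 on water (median 12.68). These falls of 2.46 ± 0.16 and 1.80 ± 0.12 stood against rises of 1.0 ± 0.13 for Pde2a, which cGMP stimulates, and of 1.05 ± 0.17 for Pde7b, with no overlap of groups in any of the 4. The abundant Pde4a was not called, at 0.09 ± 0.14.

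In other parts of the cyclic AMP pathway 2 of 28 members were called higher (7.14%, near the share over all probe sets) and 6 lower (21.4%). Adcy6, a main cyclase of the heart, fell by 0.71 ± 0.12, whereas Adcy7 rose by 1.42 ± 0.19. Akap7, an anchor of protein kinase A, fell by 0.72 ± 0.12, Grk5, a kinase that desensitises receptors, rose by 0.62 ± 0.13, and Gnas, the stimulatory G protein, was not called at -0.11 ± 0.08. Of 16 RGS genes 4 were called higher (25%), namely Rgs7 and, by less, Rgs4 (0.86 ± 0.17), Rgs5 (0.66 ± 0.12) and Rgs10 (0.68 ± 0.18). The 1 called lower (6.25%) was Rgs2, at -1.14 (adjusted p = 0.0162).

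In the angiotensin system, Agtr1a, the type 1 receptor, had levels of 11.08 to 11.84 on T3 (median 11.28), against 13.01 to 13.34 on water (median 13.24). Ace, the enzyme that forms angiotensin II, had levels of 11.42 to 12.25 on T3 (median 12.08), against 10.19 to 10.85 on water (median 10.60). Receptor and enzyme thus moved in opposite directions, by -1.85 ± 0.13 and 1.39 ± 0.16. Corin, the protease that activates natriuretic peptide precursors, fell by 1.03 ± 0.12, and Nppa, the atrial peptide itself, was not called at 0.08 ± 0.11 and lay near the top of the scale.

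Growth factor pathways were also mixed. Of 20 genes of the insulin-like growth factor axis 6 were called higher (30%) and 5 lower (25%). The insulin receptor gene Insr lay between 13.57 and 13.80 on T3 (median 13.66), against 14.62 and 15.03 on water (median 14.88), and the binding protein gene Igfbp7 between 16.69 and 17.23 on T3 (median 16.99), against 14.88 and 15.74 on water (median 15.51). Neither gene had overlapping groups, and the differences were -1.16 ± 0.09 and 1.59 ± 0.15. Igfbp3 fell by 1.19 ± 0.16 and Irs1, a docking protein of the receptor, rose by 0.99 ± 0.15. In the TGF-β and BMP list, 5 of 36 were called higher (13.9%) and 2 lower (5.56%, near the share over all probe sets). The ligand Tgfb3 (1.14 ± 0.15) and the co-receptor Eng (0.67 ± 0.12) were among the rises. The falls were those of Ltbp1 (-0.86 ± 0.16), which holds latent TGF-β, and the co-receptor Tgfbr3 (-0.82 ± 0.16).

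Guidance cues and their receptors, best known from the nervous system, gave 6 rises (15.8%) and 8 falls (21.1%) among 38 tested. Efnb3, an ephrin ligand, lay between 6.70 and 7.67 on T3 (median 6.99), against 9.09 and 9.90 on water (median 9.44), a difference of -2.35 ± 0.19. Plxnb1, a semaphorin receptor, fell by 2.0 ± 0.17 and Epha4, an ephrin receptor, by 1.38 ± 0.17. In contrast Cntn2, a contactin found in the conduction system, rose by 2.50 ± 0.19, and Nrp2, a co-receptor of semaphorins and VEGF, by 1.17 ± 0.19. None of these 5 had overlapping groups.

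Among 23 genes of the thyroid hormone system itself, 1 was called higher (4.35%) and 2 lower (8.7%). These shares were near the 6.26% and 6.49% over all probe sets. Hr, a corepressor known as a direct target of the receptor in brain, lay between 8.07 and 8.47 on T3 (median 8.31), against 5.45 and 7.102 on water (median 6.39), a level close to the negative controls. Rxrg, a retinoid X receptor, lay between 11.36 and 11.82 on T3 (median 11.47), against 12.39 and 12.92 on water (median 12.50), and Thra, which encodes TRα1, between 9.60 and 9.92 on T3 (median 9.81), against 10.40 and 11.28 on water (median 10.63). The groups were separate in all 3 genes, and both receptor genes were lower on T3, by -1.08 ± 0.13 for Rxrg and -0.95 ± 0.13 for Thra. Klf9, a hormone-responsive transcription factor of other tissues, was not called at 0.10 ± 0.18, with a sign that depended on water array 6.

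Ion channel genes included large changes of auxiliary subunits. Kcnip2, the partner of the channels of the transient outward current, lay between 11.60 and 12.17 on T3 (median 11.95), against 14.78 and 14.95 on water (median 14.86), a difference of -2.96 ± 0.11 (adjusted p = 6e-15). The calcium channel list gave 2 rises (15.4%) and 4 falls (30.8%) among 13 tested. Its α2δ subunit gene Cacna2d1 rose by 0.78 ± 0.11, and 3 of 5 pore subunit genes fell, by 0.65 ± 0.10 for Cacna1c of the L-type current, by 0.63 ± 0.11 for Cacna1h of the T-type current and by 1.21 ± 0.21 for Cacna1s of skeletal muscle. The other pore subunit genes were not called, at 0.51 ± 0.18 for Cacna1g (adjusted p = 0.0625, or 0.0195 without water array 4) and 0.43 ± 0.22 for Cacna1d, which lay under the negative controls in both groups. Scn4b, a β subunit of sodium channels, rose by 1.38 ± 0.18, whereas Fgf13, a modulator of the same channels, fell by 0.88 ± 0.19. Hcn2 had levels of 9.57 to 10.34 on T3 (median 9.92), against 6.28 to 7.54 on water (median 7.08).

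Junctions between cardiomyocytes were among the groups with falls, with 9 of 24 connexin and intercalated disc genes called lower and 2 higher, against 6.49% called lower over all probe sets. Ctnna3, an α catenin of the heart, fell by 1.40 ± 0.15, the desmosomal cadherins Dsg2 and Dsc2 by 1.06 ± 0.13 and 0.87 ± 0.15, and the connexin gene Gja3 by 1.01 ± 0.15. Gja1, the main connexin of the ventricle, was not called, at -0.29 ± 0.10 (adjusted p = 0.075, or 0.0371 with only genes above a mean of 6 tested). Of 38 cardiac transcription factors, 12 were called lower and 0 higher (median -0.18), or 2 higher without the 3 arrays. Gata6 lay between 8.69 and 9.25 on T3 (median 8.91), against 9.91 and 10.78 on water (median 10.47), a difference of -1.47 ± 0.15. Irx3, a factor of the conduction system, fell by 1.19 ± 0.15, Irx4, a ventricular factor, by 1.07 ± 0.20 and Prox1 by 0.96 ± 0.15, while Mef2c was not called at 0.18 ± 0.09.

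Among 28 genes of the thin filament and myosin light chains 5 were called higher (17.9%) and 2 lower (7.14%). Without the 3 arrays that stood apart, 6 were higher and 0 lower. Among 27 genes of calcium cycling in the sarcoplasmic reticulum 4 were called in each direction (14.8%), or 2 lower without these arrays. Myl1, a light chain of fast skeletal myosin, lay between 17.43 and 17.77 on T3 (median 17.70), against 15.38 and 15.94 on water (median 15.61). Casq1, the calcium-binding protein of the skeletal sarcoplasmic reticulum, lay between 10.46 and 11.85 on T3 (median 11.30), against 8.05 and 9.17 on water (median 8.90). The differences of 2.03 ± 0.17 and 2.38 ± 0.29 compare with one of 0.10 ± 0.09 for Casq2, the cardiac form, which was not called. Atp2a1, the fast skeletal calcium pump, had a mean on water just under the negative controls and a difference of 1.70 ± 0.17, a lower bound. Of 6 markers of skeletal muscle 0 were called higher, Ckm, the muscle creatine kinase, fell by 0.52 ± 0.10, and Myh4, Myh2, Mylpf and Tnnt3 lay under the negative controls in both groups. The fast skeletal troponin genes Tnni2, Tnnt3 and Tnnc2 were not called, with differences between -0.05 and 0.57. The tropomyosin genes Tpm4 and Tpm3 rose by 0.94 ± 0.15 and 0.83 ± 0.11, and the light chain gene Myl6 by 0.62 ± 0.11. Tpm3 encodes muscle and non-muscle forms, which were not told apart here.

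Among 37 genes of the M band, titin and the Z disc, 11 were called lower and 0 higher. Myom2, a gene of the myomesin family of the M band, lay between 11.58 and 12.59 on T3 (median 12.29), against 15.81 and 16.004 on water (median 15.93), a difference of -3.78 ± 0.18. Its relatives Myom1 and Myom3 were not called, at 0.04 and -0.44. Trim55, a ubiquitin ligase bound to titin, fell by 0.93 ± 0.12, Smyd2, a methyltransferase of the sarcomere, by 0.79 ± 0.12 and Cryab, a small heat shock protein, by 0.50 ± 0.10. Csrp3, a Z-disc protein and cardiomyocyte marker, fell by 0.39 ± 0.10, a call that was lost without the 3 arrays.

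Enzymes that share a substrate in the citric acid cycle and beside it moved apart. Idh2, the NADP-dependent isocitrate dehydrogenase, lay between 15.73 and 16.10 on T3 (median 15.88), against 17.74 and 17.99 on water (median 17.83). Idh3a, a subunit of the NAD-dependent enzyme of the citric acid cycle, lay between 17.83 and 18.03 on T3 (median 17.89), against 17.43 and 17.68 on water (median 17.57). The difference of Idh2 was -1.96 ± 0.09 (adjusted p = 1.4e-13) and that of Idh3a 0.35 ± 0.09 (adjusted p = 0.012). Of 25 citric acid cycle genes 4 were called higher and 4 lower, with falls of Ogdh (-0.34 ± 0.08) and Suclg2 (-0.62 ± 0.11) and a rise of Me1, the cytosolic malic enzyme (0.50 ± 0.13). Without the 3 arrays that stood apart, 0 of these genes were called higher and 5 lower, and the calls of Idh3a and Me1 were lost.

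Breakdown of branched-chain amino acids and ketones was the list with the largest share of falls among 12 lists of energy metabolism, 14 of 24 called lower and 0 higher (median -0.45), against 6.49% called lower over all probe sets. All 14 falls belonged to the 20 genes of branched-chain amino acids, and the 4 ketone enzymes Oxct1, Bdh1, Bdh2 and Acat1 were not called, with differences between -0.23 and 0.11. Ppm1k, the phosphatase that activates the branched-chain ketoacid dehydrogenase, lay between 10.92 and 11.67 on T3 (median 11.33), against 13.29 and 13.72 on water (median 13.55), a difference of -2.22 ± 0.19. Dbt, the core subunit of that dehydrogenase, fell by 1.03 ± 0.11, Aldh6a1, of valine breakdown, by 1.16 ± 0.10 and Hsd17b10, of isoleucine breakdown, by 1.10 ± 0.11. Bckdk, the kinase that inactivates the same dehydrogenase, had a difference of -0.41 ± 0.13 (adjusted p = 0.0398), a call lost under 14 of 27 alternatives, among them leaving out water array 1, 5 or 6 or T3 array 1, 2, 3 or 6.

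Respiratory chain genes had small median differences. In complex I, 3 of 35 (8.57%) were called lower and 0 higher (median -0.10), and in complexes II to V, 6 of 44 were lower and 2 higher (median -0.09), or 3 lower without the 3 arrays. Atpif1, the inhibitor of ATP synthase, was an exception in size and fell by 1.12 ± 0.09. The muscle isoforms of cytochrome oxidase split, with Cox7a1 higher by 0.53 ± 0.13 and Cox6a2 and Cox8b lower. Cox6a2 was at -0.36 ± 0.09, a call that was lost without the 3 arrays, and Cox8b was at -0.35 (adjusted p = 0.0438). Mitochondrial ribosomal proteins gave 7 falls (10%) and 0 rises among 70. The shares of falls in complex I and among these ribosomal proteins were close to the 6.49% over all probe sets. The lists were not matched by level, and the share of falls was 19.7% over all probe sets at mean levels from 12 to 14.

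Fuel handling genes did not share a direction. Lpl, which frees fatty acids from lipoproteins, lay between 16.73 and 16.99 on T3 (median 16.88), against 17.58 and 17.93 on water (median 17.75), a fall of 0.89 ± 0.09. Pfkp, the platelet-type phosphofructokinase, lay between 11.83 and 12.25 on T3 (median 12.05), against 10.20 and 10.85 on water (median 10.56), a rise of 1.53 ± 0.19. Of 35 genes of glycolysis, glycogen and glucose transport 5 were called higher and 7 lower, with Pgk1 (0.72 ± 0.10) and the phosphorylase kinase subunit Phkb (0.75 ± 0.11) among the rises. Fdft1, which makes squalene for cholesterol, fell by 1.83 ± 0.17, and Elovl5, a fatty acid elongase, rose by 0.92 ± 0.12. Ampd3, an AMP deaminase, rose by 0.90 ± 0.13, and Prkag2, a subunit of AMP-activated kinase, fell by 0.84 ± 0.13. Of 27 nuclear receptors and co-regulators of metabolism 7 were called lower (25.9%) and 1 higher (3.7%), with a median of -0.24. The falls included the metabolic regulator Klf15, by 1.15 ± 0.17, Ppara, at -1.37, and Ppargc1a, at -1.01. The 1 rise was that of Lpin1, a lipid phosphatase and co-regulator, by 0.66 ± 0.10.

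All 54 tested genes of cytosolic ribosomal proteins had a difference below 0, with 17 called lower and 0 higher. Their shift was small and narrow, with a median of -0.24 and a range from -0.69 to -0.07, beside a median of 0.01 over all tested probe sets. Rpl36 lay between 9.93 and 10.34 on T3 (median 10.19), against 10.66 and 10.99 on water (median 10.84), and Rpl5 fell by 0.55 ± 0.09. Proteasome genes gave 4 rises (11.1%) and 0 falls among 36, and 2 rises without the 3 arrays. The rises were led by the activator Psme4 (0.85 ± 0.12) and Psmd8 (0.63 ± 0.10). Another activator, Psme1, was called lower at -0.99 ± 0.10 but was counted in the MHC class I list. Of 37 chaperone and unfolded protein response genes 6 were called higher and 6 lower (16.2% each), or 3 higher without the 3 arrays. Genes of the endoplasmic reticulum were called in both directions or not at all. The falls included Hspa5, its main chaperone, at -0.68 ± 0.11, Hsp90b1 at -0.54 ± 0.10 and Herpud1, a membrane protein of its quality control, at -1.0 ± 0.15. Edem1, which acts in the same quality control, was called higher at 0.58 ± 0.16, a call lost without T3 array 1 and without the 3 arrays, and Hyou1, Pdia3 and Dnajc3 were not called, at -0.20, -0.02 and 0.10. In the ubiquitin ligase, atrophy and autophagy list 9 of 39 were called lower and 3 higher, and the muscle ligase subunits Asb14 and Asb15 fell by 1.09 ± 0.13 and 1.08 ± 0.14.

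Iron and redox genes held some of the larger single changes. Tfrc, the transferrin receptor, lay between 12.93 and 14.28 on T3 (median 13.84), against 10.74 and 11.98 on water (median 11.04), a rise of 2.50 ± 0.25. Alas1, the entry enzyme of haem synthesis, rose by 0.92 ± 0.13 and Steap3, an iron reductase, by 0.68 ± 0.14. In the iron and haem list 5 of 39 genes were called higher (12.8%) and 1 lower (2.56%). Nqo1, a quinone reductase, lay between 8.32 and 9.31 on T3 (median 9.14), against 10.56 and 11.20 on water (median 10.67), a fall of 1.83 ± 0.17. The methionine sulfoxide reductase Msrb1 and the extracellular superoxide dismutase Sod3 rose by 1.17 ± 0.12 and 1.15 ± 0.17. Of 48 antioxidant and glutathione genes 6 were called higher and 10 lower (median -0.12).

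Matrix genes rose in large shares, 15 of 37 collagen genes, 10 of 27 collagen-modifying enzymes, 19 of 47 genes of basement membrane, elastic fibre and matricellular proteins, and 17 of 35 matrix proteases and inhibitors, against 6.26% over all probe sets. Their falls numbered 1, 1, 2 and 1. P4ha1, a prolyl hydroxylase that collagen folding needs, lay between 12.50 and 12.88 on T3 (median 12.67), against 10.87 and 11.40 on water (median 11.22), and Sparc, a collagen-binding protein, between 17.51 and 18.005 on T3 (median 17.75), against 15.28 and 16.59 on water (median 16.24). Every T3 heart was above every water heart for both genes, by 1.52 ± 0.16 and 1.60 ± 0.17 in the mean. Pcolce, an enhancer of procollagen cleavage, rose by 1.47 ± 0.19, the crosslinking enzyme Loxl1 by 1.28 ± 0.15 and the collagen chaperone Serpinh1 by 0.91 ± 0.12. Basement membrane genes rose too, by 1.33 ± 0.17 for Col15a1, 0.88 ± 0.10 for Lama2 and 0.81 ± 0.10 for Nid1. Ctss, a cathepsin of macrophages, rose by 1.30 ± 0.17.

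Vascular and immune genes shared this direction. Of 47 angiogenic ligands and receptors 12 were called higher and 3 lower. Aplnr, the apelin receptor, lay between 11.22 and 11.79 on T3 (median 11.64), against 9.28 and 10.57 on water (median 9.85), a rise of 1.63 ± 0.17, while Vegfb fell by 0.82 ± 0.12 and Vegfa was not called at 0.33 ± 0.16, though it passed without water array 6, at 0.47 (adjusted p = 0.0252). Of 36 chemokines and receptors 11 were called higher (30.6%) and 1 lower (2.78%), or 7 higher without the 3 arrays. Ccl9 rose by 1.54 ± 0.28 and Cxcl16 by 0.91 ± 0.12. Of 33 complement and coagulation genes 8 were higher (24.2%) and 3 lower (9.09%). Among the rises were Vtn, vitronectin (1.27 ± 0.12), and C3ar1, the C3a receptor (1.33 ± 0.13). In the MHC class I list 7 of 22 were higher and 2 lower, or 4 higher without the 3 arrays. H2-D1 rose by 1.19 ± 0.16, whereas the proteasome activator Psme1 fell by 0.99 ± 0.10. Tnfaip2, an endothelial gene that TNF induces, rose by 1.67 ± 0.17.

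Markers of other cell types moved with these groups. Macrophage markers were called higher in 6 of 7 cases (median 1.10), and the log2 of their summed intensity ran from 13.64 to 13.99 on T3, against 12.69 to 13.35 on water. Endothelial markers were higher in 6 of 7 (median 0.64), with sums of 17.32 to 17.49 on T3 and 16.71 to 17.09 on water, and fibroblast markers in 3 of 7 (median 0.33), with sums of 18.49 to 18.67 on T3 and 18.19 to 18.47 on water. None of these sums overlapped between groups. Smooth muscle and pericyte markers gave 3 rises and 1 fall among 8, with Acta2 at 1.62 ± 0.27 and Abcc9, which cardiomyocytes also express, at -1.18 ± 0.12, and their sums overlapped, at 16.65 to 16.99 on T3 and 16.08 to 16.67 on water. Cardiomyocyte markers gave 2 falls among 8 (median -0.17), with overlapping sums of 21.51 to 21.62 on T3 and 21.58 to 21.70 on water, and 0 falls without the 3 arrays. No member of these 5 lists lay under the negative controls in both groups. In whole hearts, more cells of a type and more RNA per cell cannot be told apart, and the part of these markers in the matrix, vascular, interferon and immune results was not tested.

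**Figure D4:**
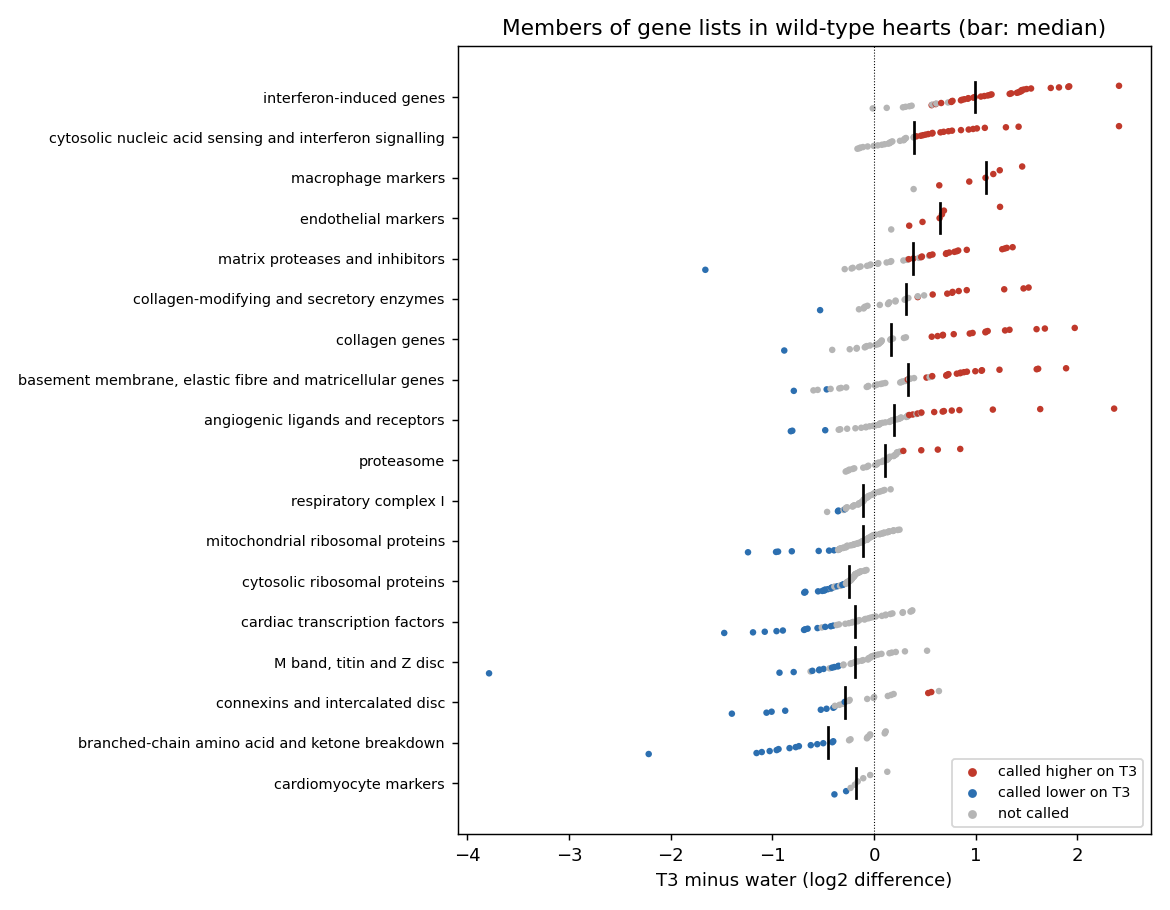
T3 minus water (log2 difference) of each tested member of 18 gene lists in wild-type hearts (points, red called higher, blue called lower, grey not called), with the list median as a bar. Interferon-induced genes have a median of 0.99 with 34 of 43 called higher, and all 54 cytosolic ribosomal protein genes lie below 0.

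In TRα1+m hearts, which served only to show where the wild-type response differs, 15.2% of probe sets were called for T3. The difference between the genotypes in their response was called in 58 probe sets, or 0.275%, and 36 genes were called both for it and for T3 in wild type. Of 2430 genes called in wild type, 1633 were also called in the same direction in TRα1+m (67.2% of the wild-type calls and 56.7% of the 2878 mutant calls) and 0 in the opposite direction. A gene called in 1 genotype alone is not thereby shown to differ between them.

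Some responses were larger in wild type. Lrat differed by 6.71 ± 0.26 in wild type and by 4.53 ± 0.28 in TRα1+m (adjusted p = 0.0068 for the interaction), Hr by 1.91 ± 0.19 and 0.51 ± 0.21 (adjusted p = 0.026), and Atp2a1 by 1.70 ± 0.17 and 0.07 ± 0.19 (adjusted p = 0.0025). The fall of Myom2 was also larger in wild type, at -3.78 ± 0.18, than in TRα1+m, at -2.03 ± 0.20 (adjusted p = 0.0015). Cldn5, a tight junction gene of the endothelium, differed by 1.24 ± 0.17 in wild type, against -0.04 ± 0.19 in TRα1+m (adjusted p = 0.026). In TRα1+m the negative controls had medians of 6.502 to 6.570 on T3 arrays and of 6.68 to 6.74 on water arrays. The mutant means of Lrat and Hr on water, and both mutant means of Atp2a1, lay under that level, so that the sizes of these 3 interactions are not settled, whereas Myom2 and Cldn5 were above it in all groups.

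Other responses were smaller in wild type. The carbonyl reductase gene Cbr2 differed by 1.25 ± 0.20 in wild type and by 3.72 ± 0.22 in TRα1+m (adjusted p = 0.00018), Irf7 by 2.41 ± 0.33 and 4.78 ± 0.37 (adjusted p = 0.034), and Rsad2 by 1.45 ± 0.19 and 3.52 ± 0.21 (adjusted p = 0.00071). Gbp3, Slfn5, Tlr7 and C3ar1 behaved in the same way, with wild-type differences of 1.33 to 1.42 and mutant differences of 2.38 to 3.15. The slow myosin gene Myh7 differed by -1.91 ± 0.25 in wild type and by -4.43 ± 0.28 in TRα1+m (adjusted p = 0.0015). Hcn2 differed by 2.99 ± 0.22 in wild type and by 4.57 ± 0.24 in TRα1+m (adjusted p = 0.026). The mutant water means of Irf7 and Hcn2 were under the negative controls, and their mutant differences are lower bounds. Kcne1, a subunit of the slow delayed rectifier, was measured at -1.72 ± 0.26 in wild type and -4.05 ± 0.28 in TRα1+m (adjusted p = 0.0035), but its T3 means were under the negative controls in both genotypes, so that both values are bounds and the size of this interaction is not settled either. The genotypes also differ in the level of negative controls in the deposited values, and the count of called interactions was 88 after joint quantile normalization.

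**Figure D5:**
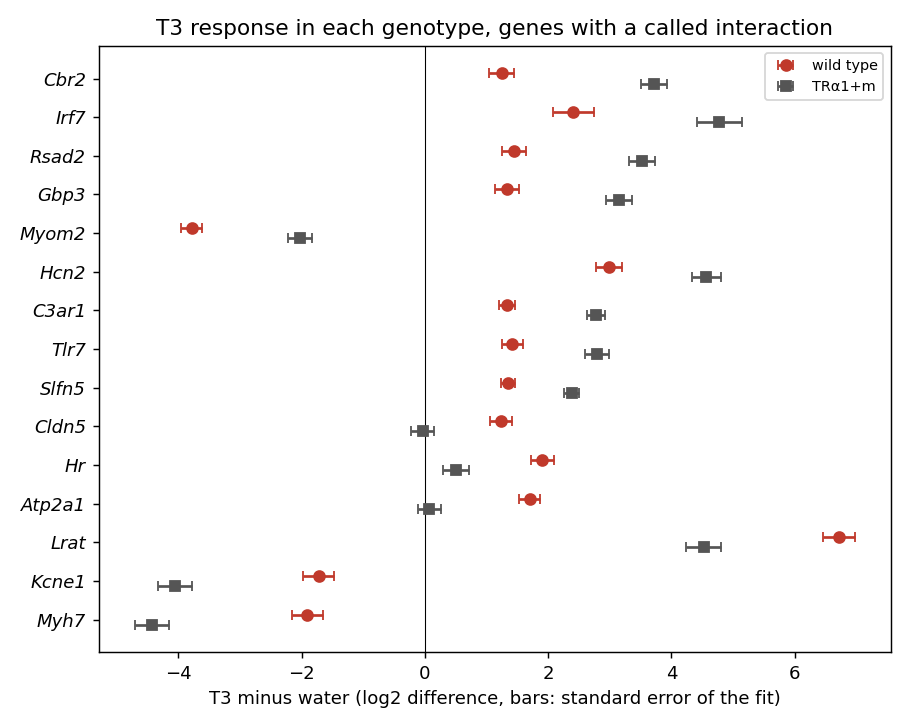
T3 minus water (log2 difference, with the standard error of the fit) in wild-type hearts (red circles) and TRα1+m hearts (grey squares) for 15 genes with a called interaction. The measured wild-type difference is the larger for Lrat, Hr, Atp2a1, Cldn5 and Myom2, and the smaller for the other genes shown.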

How the data were processed

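Whole-heart RNA had been labelled with the WT Pico kit and hybridised to Clariom S Mouse arrays. According to the submitters' processing notes, the authors processed the scans with RMA in the Transcriptome Analysis Console 4.0.1, a method that subtracts background, evens out the arrays and combines the probes of a set, and the deposited values are log2 intensities per probe set. Genome build and whether all arrays were normalized together are not given in the sources used here. The table held 28846 entries, of which 22206 were gene probe sets, and 0 of its columns lacked a sample. Probe sets with a mean above 4 over the 22 arrays were tested (21092), from Sun3 at 4.00034 just inside to an unnamed one at 3.99985 just outside. Of these, 18573 named a single gene in the platform's annotation, with symbols updated through Entrez identifiers. Some genes have no named probe set and are not analysed here.

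A mean for each of 4 groups was fitted over the 22 arrays with limma 3.58.1 (lmFit, eBayes) in R 4.3.3, with contrasts for T3 in wild type, T3 in TRα1+m and their interaction. Probe sets with an adjusted p below 0.05 were called. Each gene was read from its probe set with the highest mean, and array number, 6 against 6, limits the precision. Named genes were drawn from the 20 largest called rises and 20 largest called falls without predicted genes, the 10 most abundant called genes, up to 4 called and 2 uncalled members of each of 68 gene lists, and 4 genes in each direction for the interaction among genes called for both. Bckdk, Edem1, Cacna1d, Cacna1g and the named members of lists given without an error were added after their values were seen. Gene lists have no test and are described by their counts and medians. The members, lists and comparisons were chosen with earlier results of these data known. Pairs of wild-type arrays shared at most 0.0427% of values, and none was treated as a repeat of another. Alternatives covered normalization, filters, variance models, a minimum fold change, a replicate block and arrays left out.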

Additional observations from a re-analysis of the deposited data

Results flagged for a closer look

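Within groups of 6 arrays, 21 of 346 sets of values had a single array far from the rest, measured as its gap to the nearest array over the whole range, a rate near the 1 in 20 that chance gives. T3 array 6 was the lowest of its group for Lrat at 10.88, Col4a3 at 8.38, Cacna2d1 at 11.76 and Cry2 at 9.09. Water array 6 was the lowest for Casq1 at 8.05, Cacna2d1 at 11.03, Dsg2 at 11.47, Pcolce at 8.02 and Sparc at 15.28, and the highest for Cacna1s at 8.67. Water array 3 was the lowest for Hsd17b10 at 14.83 and Abcc9 at 14.88. These 3 arrays thus hold 12 of the 21 values, and they are the arrays that lay lowest on the second component. The remaining values were those of T3 array 2 for Abhd18 (8.76, highest) and Cep128 (6.36, lowest), T3 array 5 for Ubxn10 (4.71, lowest) and Rxrg (11.82, highest), and T3 array 4 for Cldn5 (10.08, highest). Among water hearts they were those of array 5 for Cpxm2 (8.08, lowest) and Hadhb (18.15, highest) and of array 4 for Prkag2 (11.40, highest) and Irf9 (7.77, highest).

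The response to T3 differed between genotypes by the interaction term in 15 named genes. The mutant difference minus the wild-type difference was -2.19 for Lrat, -1.40 for Hr, -1.62 for Atp2a1, -1.28 for Cldn5, -2.53 for Myh7 and -2.33 for Kcne1, and the sizes for Lrat, Hr, Atp2a1 and Kcne1 are not settled for the reason given above. It was 1.76 for Myom2, 1.58 for Hcn2, 2.47 for Cbr2 and 2.37 for Irf7. Among the remaining immune genes it was 2.07 for Rsad2, 1.82 for Gbp3, 1.45 for C3ar1, 1.38 for Tlr7 and 1.03 for Slfn5.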

How the results depend on the processing

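The number of probe sets called for T3 stayed within 1.5 times of 2688 under all alternatives except a minimum fold change of 1.5, under which 254 were called, 144 higher and 110 lower. It ran from 2359 to 2741 when each wild-type array was left out, with 1161 to 1351 higher and 1140 to 1462 lower. Without water arrays 3 and 6 and T3 array 6, a choice made after seeing the data, 2258 were called, of which 1981 were among the 2688. With the interquartile range of the array as a covariate, also chosen after seeing the data, 3050 were called. The interaction count of 58 became 88 after quantile normalization and 99 with trended and robust variances, and ran from 40 to 85 when each array was left out. Replicate numbers are not said to pair animals. With group means taken off, same-numbered wild-type arrays correlated at 0.031 to 0.293, and 2 of 6 fell under 0.1. T3 arrays 3 and 4 correlated best with the water array of their own number, the others with a different one. These values cannot settle whether arrays were paired. With the replicate number as a block 2272 were called in the 12 wild-type arrays and 65 for the interaction over all arrays. Of 173 named genes, 92 kept their side of the threshold under every alternative, 68 lost their call only under the minimum fold change, and 9 lost it under another, namely Serinc3, Idh3a, Cox6a2, Slc25a3, Ogdh, Me1, Csrp3, Edem1 and Bckdk. Klf9, which was not called, turned to -0.0681 without water array 6 and to -0.0881 without the 3 arrays, and ran up to 0.1771 when T3 array 6 was left out. Genes under the level of the negative controls are limited by background.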
